A study of Mus musculus with 23 samples.

Results

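Resting bone marrow-derived macrophages of wild-type mice, called wt BMDM below, are described here from the 4 arrays of wt cultures kept in medium, out of 23 arrays in the whole study. The members were chosen by label alone: genotype wt, treatment medium. Bone marrow from the femora of male mice on a C57BL/6J background was cultured for 9 days with 10 ng/ml M-CSF and 10% FCS. For the last hour before the experiment the medium held no M-CSF, and the cells then stayed in medium alone for 120 min. The mice of cultures 1 and 4 were 12 weeks old and those of cultures 2 and 3 were 13 weeks old, and the 4 cultures came from independent experiments. All 8 wt arrays were on 1 of 3 slides. The wt array of the same replicate number after 120 min with 100 ng/ml LPS was taken as a second array of each culture. The replicate numbers and ages of the mice match, but the labels do not state that such arrays share a culture. This second array serves below only as another reading of the same culture, and no treatment or genotype is compared. RNA was labelled with a single dye and hybridised to Agilent mouse arrays, 1 sample per array.

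M-CSF drives marrow progenitors to proliferate and to differentiate into adherent macrophages, and signals through the receptor tyrosine kinase encoded by *Csf1r*. Macrophages take up particles, dying cells and lipoproteins and degrade them in lysosomes, whose lumen is acidified by a vacuolar proton pump. They carry pattern recognition receptors that sense microbes, and genes of the inflammatory response stay low until such a receptor is engaged.

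Signals are given as log2 of the background-subtracted spot intensity after quantile normalisation, in the order of cultures 1 to 4 unless stated otherwise. A gene was counted as detected when at least 1 of its probes was marked by the scanner software as well above background on all 4 arrays, and as off when none of its probes was so marked on any array. Of 20,887 named genes, 13,391 or 64.1% were detected and 5,069 or 24.3% were off. These shares are the base for the counts of list members below. A further 1,315 genes were marked on 1 array, 545 on 2 and 567 on 3. Detected genes had a median signal of 9.95 and genes that were off one of 2.01. The 100 genes with the brightest probes held 25.5% of the summed linear signal, and the genes that were off held 0.0230%. Percentiles below give the position of the mean signal of a gene among all 20,887. They order probe signals and not amounts of transcript, because probes bind with different strength. Of 5,512 genes with several probes, 21.9% had probes that differed by more than 4 log2 units, with a median gap of 1.98.

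The labels of the arrays were checked before use. *Xist*, which is transcribed from the inactive X chromosome, was off, and *Ddx3y*, *Eif2s3y*, *Kdm5d* and *Uty* of the Y chromosome were detected. The mice were male. *Mapkapk2*, the gene that is deleted in the other genotypes of the study, gave 12.46, 12.64, 11.49 and 12.28. No spot was saturated, between 163 and 309 spots per array were left out for poor quality, and 4 to 7 of 308 negative control spots per array were marked as well above background. Culture 1 stood apart from the others by its signals of stromal genes, described below, and counts that rest on it are also given without it.

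**Figure D1:**
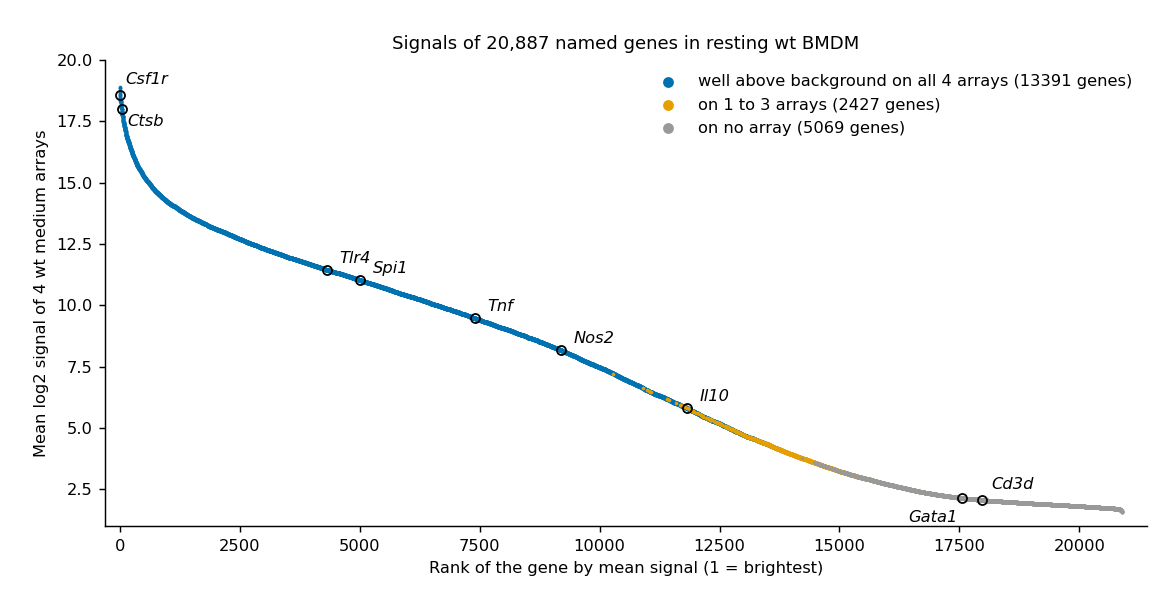
Mean log2 signal over the 4 wt medium arrays (vertical axis) of the 20,887 named genes against their rank (horizontal axis, brightest first), coloured by whether a gene was well above background on all 4 arrays (13,391), on 1 to 3 (2,427) or on none (5,069). *Csf1r* and *Ctsb* lie at the upper end, *Tlr4*, *Spi1*, *Tnf* and *Nos2* within the detected range, and *Cd3d* and *Gata1* among the genes that were off.

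The signals carried the markers of the macrophage lineage on every array. All 24 listed lineage genes with a named probe were detected, compared with 64.1% of all genes, and their median percentile was 98.5. *Csf1r*, the M-CSF receptor, gave 18.56, 18.62, 18.62 and 18.49 and held rank 8 of 20,887. Its other probes had means of 15.49 and 14.38, so the rank depends on the probe, but all 3 probes were detected. *Adgre1*, which encodes the surface antigen F4/80, gave 16.08, 16.97, 16.87 and 16.60. *Itgam*, the integrin chain CD11b that pairs with the product of *Itgb2*, gave 14.38, 15.10, 14.51 and 14.53. *Cd68*, a lysosomal glycoprotein of phagocytes, had no named probe and was not analysed here.

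The remaining marker was uneven among cultures. *Mrc1*, the mannose receptor, gave 9.34, 11.61, 12.19 and 12.33, a range of 7.95-fold. Culture 1 was the low one, and the other 3 lay between 11.61 and 12.33. On the LPS arrays the same culture was again lowest, at 9.72 against 11.28 to 12.09.

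Core macrophage genes that serve adaptor, complement and lipid functions had signals at the upper end of the array. *Tyrobp*, the adaptor DAP12, gave 17.42, 17.84, 17.60 and 17.33, and its partner receptor gene *Trem2* gave 17.17, 17.80, 17.49 and 17.40. *Apoe*, the lipoprotein of cholesterol export, gave 17.60, 18.49, 18.81 and 18.17. *C1qb*, a chain of the first complement component, gave 15.18, 16.68, 16.48 and 15.83. Culture 1 was lowest for *Apoe* and *C1qb* but not for *Tyrobp*. Of the 19 core genes measured on every array, 12 were lowest in culture 1 and 7 in culture 4, and 11 were highest in culture 2. Of the 13,391 detected genes, 4,105 were lowest in culture 1 and 2,672 in culture 4, and 25.7% were highest in culture 2. The mean deviation of the core genes from the average of the 4 arrays was -0.50, 0.50, 0.25 and -0.26. On the LPS arrays of the same cultures it was -0.53, 0.34, 0.30 and -0.11. Stromal signals moved the other way in the same arrays, with mean deviations of 1.67, -1.69, -0.25 and 0.28, and their part in the macrophage values was not tested. In RNA of whole cultures, fewer cells of a type and less RNA per cell cannot be told apart.

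Single lineage genes followed this pattern to differing degrees. *Mertk*, a receptor for apoptotic cells, gave 9.51, 11.54, 11.56 and 10.50, a range of 4.16-fold. *Aif1*, the calcium-binding protein IBA1, gave 14.45, 16.01, 16.24 and 15.46. *Cd14*, the co-receptor for LPS, gave 15.78, 15.98, 15.59 and 15.31, and there culture 1 was not low. The median SD of the 24 lineage genes was 0.495 log2 units, compared with 0.25 for all detected genes, and without culture 1 the values were 0.350 and 0.218.

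Genes that mark macrophages of particular tissues were present in part. Of 17 such genes, 10 (58.8%) were detected and 6 were off, compared with 64.1% and 24.3% of all genes. *Timd4*, *Clec4f*, *Cd163*, *Sall1*, *Gata6* and *Cd209b*, known from resident macrophages of peritoneum, liver, spleen or brain, were off, with means between 1.70 and 2.82. *Cx3cr1*, the fractalkine receptor, gave 14.99, 16.47, 16.22 and 15.89. *Cd5l*, a secreted scavenger protein of tissue macrophages, gave 11.46, 12.87, 14.08 and 13.57.

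The widest range in this list belonged to a pair of scavenging and adhesion receptors. *Marco*, a scavenger receptor for bacteria, gave 7.30, 11.45, 12.29 and 12.15, a range of 31.7-fold, with culture 1 apart from the other 3. *Siglec1*, the sialic acid receptor sialoadhesin, gave 8.61, 9.85, 12.45 and 10.78, a range of 14.3-fold spread over all 4 cultures. On the LPS arrays culture 1 was again lowest for both genes, at 9.02 and 8.31, and *Siglec1* was again highest in culture 3, at 12.48.

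Of 7 monocyte genes with a named probe, 6 were detected. *Ccr2*, the receptor that guides monocytes out of the marrow, gave 11.87, 11.69, 10.92 and 10.63. *Plac8* gave 10.69, 6.31, 7.76 and 7.71, and *Fn1*, fibronectin, gave 15.52, 10.83, 12.35 and 13.87. Fibronectin is also a product of fibroblasts, and its order among cultures was that of the stromal genes below.

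**Figure D2:**
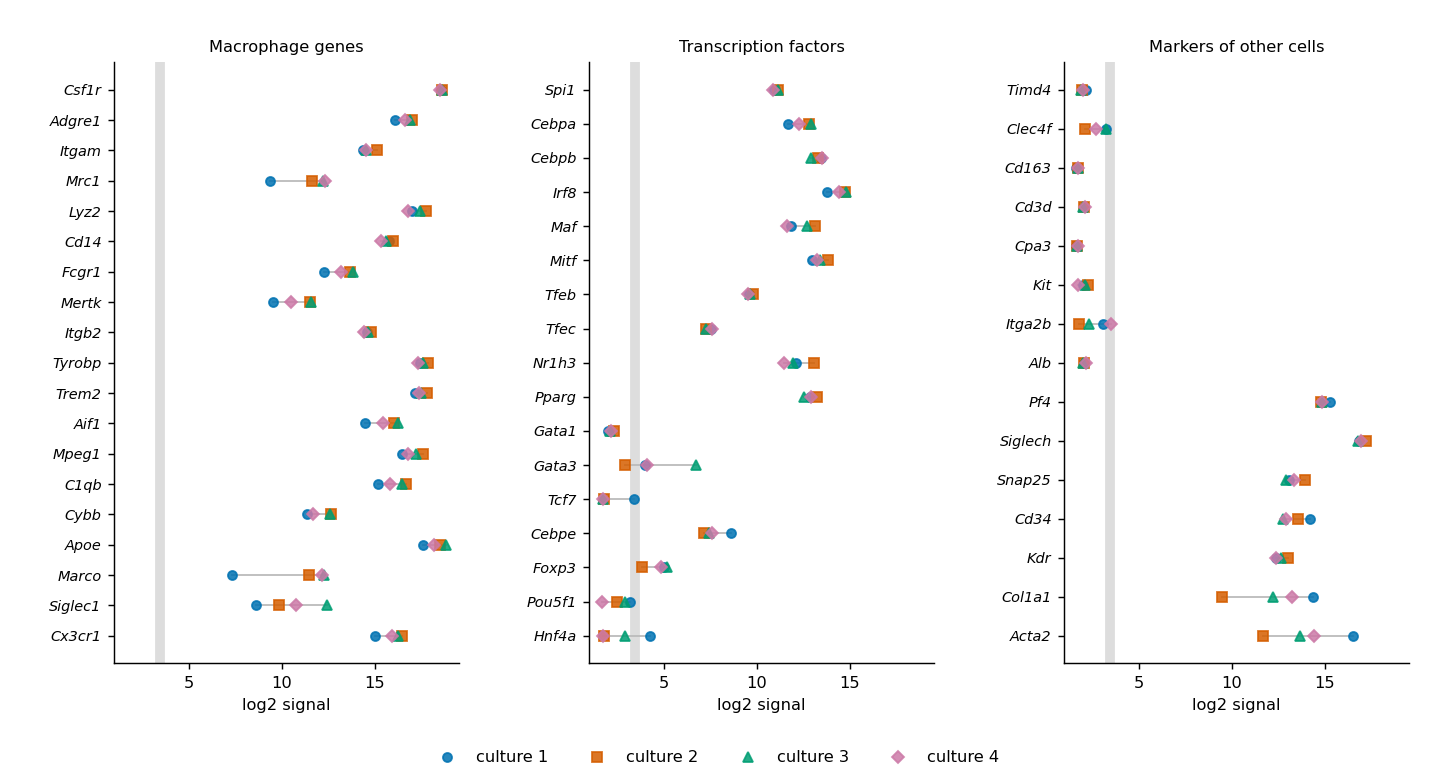
Log2 signal on each of the 4 wt medium arrays, 1 dot per culture, for macrophage genes, transcription factors and markers of other cells; the grey band spans the lowest signals marked as well above background on the 4 arrays (3.22 to 3.69). *Csf1r* dots coincide between 18.49 and 18.62, *Marco* and *Mrc1* have 1 low dot from culture 1, and *Cd3d*, *Gata1* and *Kit* lie below the band.

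All 36 listed transcription factors of macrophages were detected, with a median percentile of 86.0. *Spi1*, which encodes the lineage-determining factor PU.1, gave 10.94, 11.16, 11.13 and 10.87. *Cebpa*, a partner of PU.1 in myeloid commitment, gave 11.68, 12.81, 12.91 and 12.25, with culture 1 lowest. *Irf8*, needed for monocyte development, gave 13.78, 14.72, 14.77 and 14.43. The factors that set the mature state were detected as well. *Maf* gave 11.82, 13.11, 12.71 and 11.65. *Pparg* and *Nr1h3*, nuclear receptors for fatty acids and oxysterols, had means of 12.88 and 12.14 with SDs of 0.29 and 0.69.

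Among the same 36 factors, 3 differed more than 4-fold between the highest and the lowest culture, as did 5.41% of all detected genes. *Irf7*, the interferon-inducible regulator of type I interferon genes, gave 10.53, 11.62, 13.93 and 11.65, a range of 10.5-fold with culture 3 highest. *Egr2* gave 9.75, 9.89, 7.53 and 8.06, so cultures 1 and 2 were high and cultures 3 and 4 low. *Bhlhe40* gave 8.53, 7.89, 6.50 and 6.88 in the same split.

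Of 18 factors of other lineages 5 were detected and 9 were off, compared with 64.1% and 24.3% of all genes. Those that were off were *Gata1*, *Tcf7*, *Gfi1*, *Sox2*, *Pou5f1*, *Myod1*, *Neurod1*, *Foxa2* and *Pax6*, with means between 1.90 and 2.98. A further 4 were marked on 1 to 3 arrays, among them *Gata3*, *Foxp3* and *Hnf4a*. The 5 that were detected were *Tal1* at a mean of 9.48, *Nanog* at 9.11, *Cebpe* at 7.69, *Gfi1b* at 5.38 and *Lhx2* at 4.56. For *Nanog* the other probe was off at 2.45.

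Of 183 listed receptors with a named probe, 151 were detected, 14 were marked on 1 to 3 arrays and 18 were off. The detected share was 82.5%, compared with 64.1% of all genes. Among cytokine receptors, 32 of 40 were detected. The receptors for the colony-stimulating factors lay close to the top. *Csf2ra* gave 16.24, 16.38, 16.29 and 16.19, *Csf2rb*, the common beta chain, had a mean of 15.25 and *Csf3r*, the G-CSF receptor, one of 16.29. Both chains of the receptors for interferon-gamma (*Ifngr1*, *Ifngr2*), type I interferon (*Ifnar1*, *Ifnar2*) and IL-10 (*Il10ra*, *Il10rb*) were detected, with means between 13.19 and 14.29 and SDs of 0.14 to 0.30. *Il2ra*, *Il2rb*, *Il18r1*, *Il20ra* and *Il23r* were off. *Il1r1*, which transmits the signal of IL-1, gave 5.67, 3.35, 4.07 and 3.22 and was marked on 2 arrays, while *Tnfrsf1a*, the main TNF receptor, had a mean of 13.86.

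Toll-like receptors and their cofactors were detected in 13 of 16 cases. *Tlr4*, the receptor for LPS, gave 11.77, 11.60, 11.45 and 10.95, and its cofactor *Ly96*, the protein MD-2 that binds LPS, gave 11.05, 11.48, 11.60 and 11.17. *Tlr2*, which recognises bacterial lipoproteins, gave 13.60, 14.39, 14.12 and 14.04. *Tlr13*, a sensor of bacterial ribosomal RNA, gave 15.01, 15.72, 15.76 and 15.46. None of these 4 genes varied by more than 1.77-fold. *Unc93b1*, which carries the endosomal receptors to their compartment, had a mean of 15.10 and its clients *Tlr7*, *Tlr8*, *Tlr9* and *Tlr3* had means of 13.04, 8.20, 10.92 and 6.95. *Tlr11* and *Tlr12* were off, and *Tlr5*, the flagellin receptor, was marked on 2 arrays with 3.62, 3.88, 1.87 and 1.96.

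The sensors of the cytosol were detected without exception, 16 of 16. *Nlrp3*, the inflammasome receptor that needs priming, gave 6.35, 7.17, 6.60 and 6.37. Its adaptor *Pycard* had a mean of 13.26 and the protease gene *Casp1* one of 14.05. *Sting1*, the receptor for cyclic dinucleotides, gave 12.97, 13.31, 13.57 and 13.51, with *Cgas*, the enzyme that makes its ligand, at a mean of 10.36. The median SD of these 16 genes was 0.293, and none exceeded 4-fold between cultures.

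Receptors for opsonised and altered particles were detected in 12 of 13 cases for antibody and complement and in 21 of 24 for scavenger and lectin receptors. *Fcgr1*, the high-affinity receptor for IgG, gave 12.28, 13.67, 13.85 and 13.16. *Fcgr4* gave 9.17, 11.01, 10.53 and 9.37, and the inhibitory *Fcgr2b* had a mean of 9.04. *Cd36*, a scavenger receptor for oxidised lipids, gave 12.84, 12.42, 13.27 and 13.22, and *Msr1* had a mean of 11.10. Stabilin-1, encoded by *Stab1*, gave 13.99, 15.65, 15.40 and 14.99. *Clec4n*, the C-type lectin Dectin-2, was uneven, with 13.21, 14.00, 11.40 and 10.86 and a range of 8.80-fold. *Olr1* and *Fcamr* were off, and *Clec7a*, which encodes Dectin-1, had no named probe.

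Among the genes for uptake of dead cells, 10 of 11 were detected and 4 differed over 4-fold, compared with 5.41% of all detected genes. *Axl* gave 13.61, 13.58, 12.65 and 12.44, whereas its relative *Tyro3* gave 9.07, 5.05, 6.33 and 6.36, a range of 16.2-fold. *Gas6*, a ligand of both, gave 13.33, 14.92, 15.71 and 14.96. Without culture 1 none of the detected ones differed by over 4-fold. *Sirpa*, the receptor that withholds phagocytosis, and its ligand *Cd47* had means of 15.66 and 14.79.

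Chemoattractant receptors had the lowest detected share of the receptor groups, 13 of 19 or 68.4%, near the 64.1% of all genes, and a median percentile of 41.8. *Cxcr4*, the receptor for the marrow chemokine CXCL12, gave 11.42, 11.90, 12.00 and 11.78. The formyl peptide receptors were more variable. *Fpr1* gave 4.92, 7.23, 6.55 and 4.15, a range of 8.47-fold, and *Fpr2* gave 5.57, 7.42, 7.17 and 5.90, so cultures 2 and 3 were high for both. *Ccr1* was marked on 1 array with 4.78, 3.51, 1.97 and 2.08, and *Ccr4* and *Cxcr5* were off. Of 20 integrin chains 15 were detected. *Itgb5* had a mean of 16.33 and *Itga4* one of 13.03, while *Itga11*, a collagen receptor of fibroblasts, gave 12.46, 7.54, 9.90 and 10.56. Of 24 receptors for nucleotides, adenosine and lipid mediators 19 were detected. *P2rx4*, an ATP-gated channel of lysosomes, gave 14.74, 15.25, 15.36 and 14.95. *P2ry6*, the UDP receptor linked to phagocytosis, gave 14.75, 15.18, 15.40 and 15.29. *P2ry13* had the highest SD of the group, 1.63, with 5.53, 8.23, 5.20 and 4.51 and culture 2 highest.

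Lysosomal genes combined high signals with a spread near that of all detected genes. Of 128 with a named probe, 113 or 88.3% were detected, compared with 64.1% of all genes, and the median percentile was 89.4. The median SD of the detected ones was 0.258, compared with 0.25 for all detected genes. The list included proteases with signals near the top of the array. *Ctsd* gave 17.74, 18.16, 18.37 and 18.00, *Ctsb* gave 17.77, 18.15, 18.07 and 17.94, and *Ctss*, which trims the invariant chain in antigen presentation, gave 17.81, 18.19, 18.02 and 17.71. *Ctsl* gave 17.67, 16.95, 17.07 and 16.78 and is the only one of these 4 with culture 1 highest.

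The cathepsins that were off are those of a placental cluster of the mouse. *Ctsq*, *Ctsr*, *Cts3*, *Cts6* and *Cts8* had means between 1.72 and 1.96 and were off, and *Ctsj* was marked on 1 array. *Ctsm* at a mean of 4.64 and *Cts7* at 8.26 belong to the same cluster and were detected. *Ctsg*, a protease of neutrophil granules, was marked on 3 arrays with 5.64, 4.35, 5.63 and 3.45. *Ctse*, an endosomal aspartic protease, had the highest SD of the detected lysosomal genes, 2.72. It gave 5.05, 6.02, 11.11 and 6.20, a range of 66.8-fold, and on the LPS arrays of the same cultures 4.95, 6.01, 10.81 and 5.73. Culture 3 was thus high on both of its arrays, and the other 3 cultures were low on both.

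The enzymes that degrade glycans and lipids were detected in 29 of 30 and 19 of 21 cases. *Gla*, alpha-galactosidase A, gave 17.15, 17.72, 17.12 and 17.41. *Lipa*, the acid lipase for cholesteryl esters, gave 15.40, 15.68, 15.31 and 15.22. *Neu4* was off at 1.73 to 1.79. Membrane proteins were detected in 29 of 30 cases. *Lamp1*, the major glycoprotein of the lysosomal membrane, gave 17.74, 17.89, 17.81 and 17.74, and its relative *Lamp5*, known from neurons, was off at 1.79 to 1.91. *Npc2* and *Npc1*, which pass cholesterol out of the lysosome, had means of 16.02 and 11.34, and *Mcoln1*, the calcium channel TRPML1, gave 13.29, 13.29, 13.40 and 13.54.

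The subunit isoforms of the proton pump differed in detection. For subunit a, *Tcirg1* (a3) gave 13.27, 13.89, 13.50 and 13.51 and *Atp6v0a1* had a mean of 13.46, while *Atp6v0a4*, the isoform of kidney, was off at 2.04 to 2.82. For subunit B, *Atp6v1b2* gave 10.72, 11.49, 11.13 and 10.95, while *Atp6v1b1*, again of kidney, was marked on 1 array with 2.08, 1.74, 6.03 and 2.52. For subunit C, *Atp6v1c1* had a mean of 12.93 and *Atp6v1c2* was off at 1.98 to 2.15. For subunit d, *Atp6v0d1* had a mean of 13.15, and *Atp6v0d2*, known from osteoclasts, gave 9.06, 8.82, 6.97 and 7.18. The median SD of the 21 detected pump genes was 0.198.

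**Figure D3:**
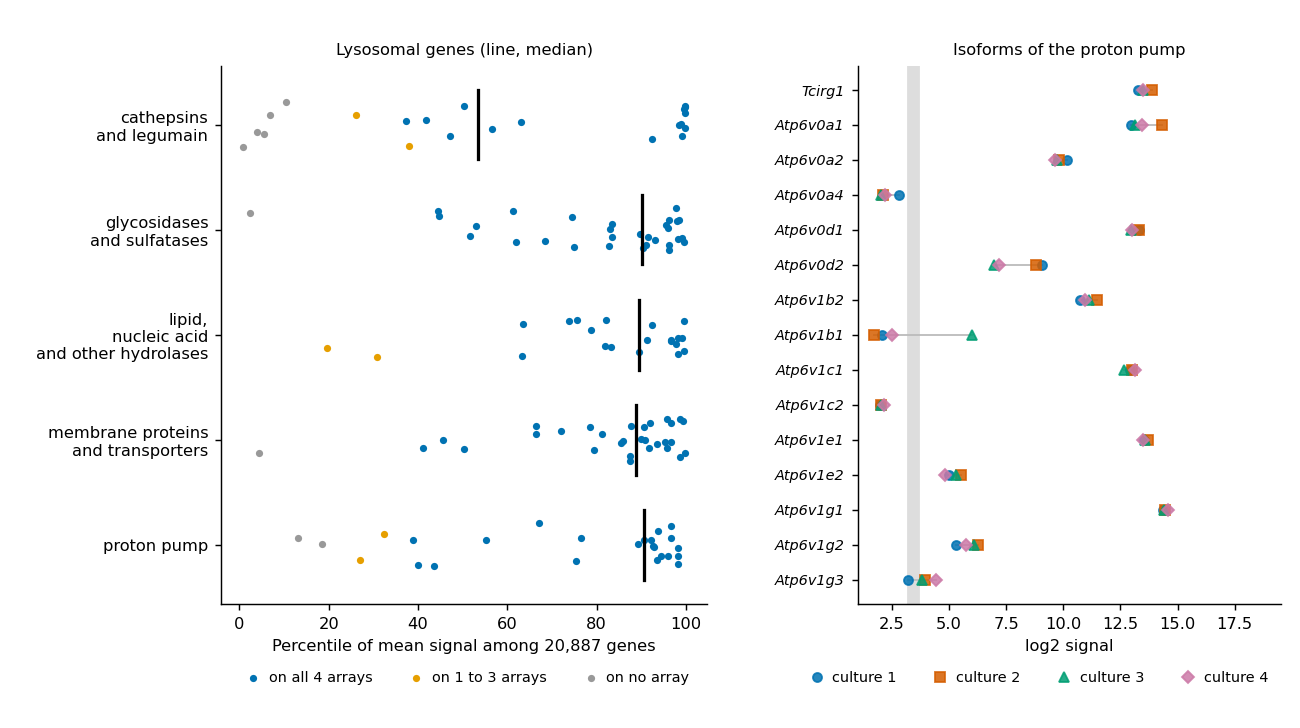
Left, percentile of the mean signal among 20,887 genes for the lysosomal genes in 5 groups, with a line at each group median. Right, log2 signal per culture of the proton pump subunits by isoform. The group medians lie between 53.3 and 90.6, and *Atp6v0a4* and *Atp6v1c2* lie at background in all 4 cultures.

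Many lysosomal genes are targets of the transcription factors TFEB, TFE3 and MITF, which bind the E-box letters TCACGTG. *Tfeb* gave 9.58, 9.80, 9.65 and 9.53, *Tfe3* had a mean of 13.81 and *Mitf* one of 13.35. RefSeq promoters of GRCm38.p6, from 250 bases before to 50 after a start site, were on hand for 104 of the lysosomal genes and were searched on both strands. The letters occurred in 18 of them, or 17.3%, and all 18 were genes detected on the 4 arrays. Most of the searched genes were detected, 89 against 14 that were not, so few could have fallen outside. Of all 27,025 genes with a promoter 4.29% held them, of the 10,746 detected genes 6.60%, and of the 32,851 promoters 3.77%. The 18 were *Ctsa*, *Ctsd*, *Lgmn*, *Glb1*, *Gaa*, *Gla*, *Naglu*, *Sgsh*, *Arsa*, *Plbd1*, *Lamp1*, *Mcoln1*, *Cln3*, *Clcn7*, *Atp6v0b*, *Atp6v0d1*, *Atp6v0e* and *Atp6v1a*. A match is a description of letters and not of binding. Shown are the 3 promoters with 4 matches each, counted over both strands so that a palindromic TCACGTGA counts as 2. *Ctsa* lies at chr2:164833523-164833822 on the plus strand, *Lamp1* at chr8:13158911-13159210 on the plus strand and *Gla* at chrX:134600956-134601255 on the minus strand. The sequences run 5′ to 3′ along the gene, and capitals mark the matches.
Ctsa: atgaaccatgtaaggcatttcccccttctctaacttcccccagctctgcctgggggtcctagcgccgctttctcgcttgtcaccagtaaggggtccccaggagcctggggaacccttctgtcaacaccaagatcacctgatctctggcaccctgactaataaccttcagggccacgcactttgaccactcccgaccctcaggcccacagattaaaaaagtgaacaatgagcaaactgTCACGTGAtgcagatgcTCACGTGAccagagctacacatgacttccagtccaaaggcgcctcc
Lamp1: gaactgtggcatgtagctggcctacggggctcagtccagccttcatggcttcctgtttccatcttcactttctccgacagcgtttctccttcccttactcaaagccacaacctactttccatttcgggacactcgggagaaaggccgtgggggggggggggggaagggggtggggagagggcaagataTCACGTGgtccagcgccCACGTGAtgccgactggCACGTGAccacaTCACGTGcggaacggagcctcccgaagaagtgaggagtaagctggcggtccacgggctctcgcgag
Gla: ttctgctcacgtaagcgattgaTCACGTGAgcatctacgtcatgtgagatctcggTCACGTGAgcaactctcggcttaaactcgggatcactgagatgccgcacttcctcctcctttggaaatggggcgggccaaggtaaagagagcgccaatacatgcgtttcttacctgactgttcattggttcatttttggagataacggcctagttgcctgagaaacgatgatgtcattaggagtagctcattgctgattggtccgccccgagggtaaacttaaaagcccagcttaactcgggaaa
The mean signals of *Ctsa*, *Lamp1* and *Gla* were 17.67, 17.80 and 17.35. Their SDs were 0.09, 0.07 and 0.28, so that on these probes *Ctsa* and *Lamp1* lay below the median of the list and *Gla* above it. Signals this near the top of the range have understated SDs after quantile normalisation. The second *Ctsa* probe was less even, with 9.22, 9.79, 10.23 and 10.10, so the spread of this gene depends on the probe.

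Of the effector genes of macrophages, 132 of 175 (75.4%) were detected and 29 were off, compared with 64.1% and 24.3% of all genes. Of 36 cytokines 19 or 52.8% were detected, a share below that of all genes, and 12 were off. *Tnf* gave 9.20, 10.35, 9.09 and 9.24, and *Il1b* gave 9.21, 10.37, 9.24 and 8.36, with culture 2 highest for both. *Il10* was detected at a low signal of 5.28, 6.10, 6.30 and 5.61. *Il6* was marked on 1 array, with 5.40, 3.73, 2.53 and 2.60 and culture 1 highest. *Ifnb1*, *Il12a*, *Il23a*, *Csf2* and *Csf3* were off, with means between 1.78 and 2.08. *Igf1*, a growth factor of tissue macrophages, gave 15.38, 15.75, 14.92 and 15.30, and *Tgfb1* had a mean of 11.67.

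The gene for M-CSF itself was uneven. *Csf1* gave 13.50, 8.69, 9.84 and 10.60, a range of 28.1-fold in the order of the stromal genes. All cultures had received M-CSF for differentiation. The brightest *Csf1r* probe, at the top of the range where spread is understated, varied by 1.09-fold, and the next gave 15.10, 16.02, 15.55 and 15.28 with culture 1 lowest.

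Chemokines were detected in 17 of 26 cases, or 65.4%, as were 64.1% of all genes. Of the 17, 7 differed over 4-fold between cultures, compared with 5.41% of all detected genes. *Ccl9* and *Ccl6*, constitutive in myeloid cells, had means of 15.26 and 12.33. *Ccl3* gave 10.96, 13.01, 12.20 and 12.10 and *Ccl4* gave 11.32, 13.51, 12.91 and 12.76, so culture 1 was low for both. *Ccl5* gave 13.33, 16.16, 17.10 and 15.39, a range of 13.6-fold. *Ccl2* and *Ccl7*, which attract monocytes, were high in culture 1 instead: *Ccl2* gave 10.16, 8.08, 7.38 and 7.58, and *Ccl7* gave 8.83, 5.56, 5.43 and 5.13. Without culture 1 none of the 17 detected chemokines differed by over 4-fold. *Ccl20*, *Cxcl5* and *Cxcl13* were off.

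Of the enzymes of inflammation 11 of 14 were detected. *Nos2*, inducible nitric oxide synthase, gave 8.13, 8.09, 8.29 and 8.15. *Ptgs1*, the constitutive cyclooxygenase, had a mean of 13.03 with an SD of 0.34, and *Ptgs2*, the inducible one, gave 10.74, 6.26, 7.30 and 7.85, a range of 22.3-fold. *Alox5ap* had a mean of 16.05. *Alox15* and *Ido1* were off. *Saa3*, an acute-phase gene of macrophages, gave 7.73, 10.60, 11.32 and 9.29, so cultures 2 and 3 were high. Among genes of alternative activation, *Retnla* was off, *Arg1* was marked on 2 arrays with 5.28, 2.10, 4.36 and 3.19, *Chil3* gave 7.49, 9.05, 7.18 and 8.23, and *Tgm2* had a mean of 14.73.

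Of 10 genes of the phagocyte oxidase and its relatives, 7 or 70% were detected, near the 64.1% of all genes. *Cybb*, the catalytic subunit, gave 11.37, 12.67, 12.59 and 11.65, *Cyba* had a mean of 17.27, and *Ncf1*, *Ncf4* and *Rac2* had means of 13.38, 15.98 and 13.95. *Nox3* and *Duox1*, oxidases of other tissues, were off. Iron storage gave signals near the ceiling of the array. *Fth1* gave 18.86, 18.94, 18.76 and 18.86, and *Ftl1* gave 18.76, 18.76, 18.74 and 18.76. *Hmox1*, haem oxygenase-1, gave 14.62, 15.29, 14.07 and 13.90, and *Slc40a1*, the iron exporter, had a mean of 11.03. *Hamp* and *Hpx*, made by liver, were off. For lipids, *Lpl* and *Plin2* had means of 15.91 and 15.94 and *Abca1*, a cholesterol exporter, gave 10.99, 12.69, 12.31 and 11.55, while *Plin1* and *Fabp1* of adipocytes and enterocytes were off.

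Antigen presentation was detected in full, 19 of 19 genes, and it split by class. Of class I, *H2-K1*, *H2-D1* and *B2m* had means of 17.26, 17.23 and 17.67. Their SDs were 0.33, 0.23 and 0.19, compared with a median of 0.25 for all detected genes. SDs this near the top of the range are understated after quantile normalisation. Several class II genes varied more. *H2-Aa* gave 12.24, 15.03, 10.40 and 10.15, a range of 29.5-fold. *Cd74*, the invariant chain, gave 15.02, 16.74, 13.36 and 13.60. *Ciita*, the activator of the class II genes, had a mean of 6.74 with an SD of 1.01 and was highest in culture 2 and lowest in culture 3. *H2-Aa*, *H2-Ab1*, *H2-Eb1*, *H2-DMa*, *H2-DMb1*, *Cd74* and *Ciita* were taken as the class II set. All 7 were highest in culture 2, as were 25.7% of all detected genes. Of the listed class II genes outside this set, *H2-Oa* was highest in culture 2 and *H2-Ob*, at 6.66, 7.14, 7.12 and 7.61, in culture 4. In all, 5 of the 19 genes differed over 4-fold, compared with 5.41% of all detected genes, and the count was also 5 without culture 1. On the LPS arrays *H2-Aa* gave 12.51, 14.53, 10.16 and 10.59, with the same culture highest.

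Genes of the cell cycle were all detected, 22 of 22, compared with 64.1% of all genes. All cultures had been without M-CSF only from the last hour before the experiment on, and the part of its removal was not tested. *Mki67*, a marker of cycling cells, gave 13.25, 13.20, 11.96 and 13.82. *Top2a* gave 11.51, 10.88, 10.38 and 11.91. Culture 4 was highest for 18 of the 22 genes, compared with 21.3% of all detected genes. The mean deviation of the list was 0.27, -0.23, -0.51 and 0.47. *Ccnd2* stood out with 12.06, 9.21, 8.87 and 9.69 and culture 1 highest, and *Ccnd1*, a target of M-CSF signalling, gave 12.99, 13.35, 11.29 and 10.98.

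Markers of other cells were searched for next. Of 98 with a named probe 50 were detected, 18 were marked on 1 to 3 arrays and 30 were off, compared with 64.1% and 24.3% of all genes. None of 8 genes of mast cells, basophils and eosinophils was detected and 6 were off, among them *Kit* and *Cpa3*. Of 6 erythroid genes 4 were off, among them *Hbb-bs*, *Alas2* and *Klf1*. For T and NK cells 5 of 11 genes were detected and 4 were off. *Cd3d*, *Cd3g*, *Ncr1* and *Klrb1c* were off, while *Cd3e* was detected at 9.78, 10.24, 10.29 and 9.84. Of 7 B cell genes 3 were detected, among them *Cd79b* at a mean of 8.99. Dendritic cell genes were detected in 4 of 8 cases, those of megakaryocytes and platelets in 4 of 6 and those of haematopoietic progenitors in 4 of 6. Genes of non-haematopoietic tissues were detected in 5 of 12 cases, and 7 were off. *Alb*, *Apoa1*, *Ttr*, *Adipoq* and *Cdh1* of liver, fat and epithelium were off, with means between 1.85 and 2.90.

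Several of the detected markers had probes that differed widely. *Siglech*, known from plasmacytoid dendritic cells, had a mean of 16.96 on one probe and 5.01 on the other. For *Pigr*, the epithelial receptor for polymeric immunoglobulin, the values were 16.49 and 1.90, and for *Nkg7* of cytotoxic cells 11.15 and 1.83. The leptin receptor gene *Lepr* had 1 of 4 probes detected, at 11.56, with the others between 1.75 and 2.84. *Kdr*, *Car4* and *Cd34* had probes at 12.62 and 6.28, 12.77 and 2.79, and 13.35 and 7.40. *Snap25*, a synaptic protein, had a single probe, at 13.07, 13.93, 12.91 and 13.36. Which transcript such a probe measured was not tested.

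Granule and calprotectin genes of neutrophils were detected in 7 of 11 cases, or 63.6%, as were 64.1% of all genes. *S100a8* gave 7.97, 10.08, 7.59 and 8.27, *Ltf* gave 5.36, 8.11, 5.74 and 5.45 and *Ngp* gave 4.00, 6.63, 4.19 and 4.14. Of the 7 detected genes 6 were highest in culture 2, as were 25.7% of all detected genes. The summed signal of the 11 genes, on the log2 scale, was 12.27, 13.33, 12.00 and 12.01. *Retnlg* was off and *Cxcr2* was marked on 1 array. Osteoclast genes were detected in 7 of 8 cases. *Acp5*, tartrate-resistant acid phosphatase, gave 12.18, 12.16, 14.06 and 12.36, with culture 3 apart, *Ctsk* gave 10.22, 7.58, 7.22 and 7.92, with culture 1 apart, and *Dcstamp*, a fusion protein, gave 12.35, 13.35, 9.92 and 10.52. *Mmp9* was marked on 1 array, at 2.87 to 3.54.

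Stromal genes were detected in 8 of 10 cases and had a median SD of 1.81 between cultures, the highest of the 12 lists of other cells, and 1.29 without culture 1. *Col1a1*, type I collagen of fibroblasts and osteoblasts, gave 14.36, 9.49, 12.23 and 13.23, a range of 29.3-fold. *Col1a2* gave 16.35, 11.85, 13.85 and 14.66. *Acta2*, smooth muscle actin, gave 16.51, 11.67, 13.65 and 14.41. For all 3 genes the order was culture 1, 4, 3, 2 from high to low. The LPS arrays of these cultures gave 14.03, 9.40, 12.11 and 13.20 for *Col1a1*. The summed signal of the 10 stromal genes, on the log2 scale, was 17.65, 13.57, 15.16 and 15.90. *Lum* was off, *Pdgfra* was marked only on the array of culture 1 at 5.48, and *Dcn* was low at 4.48 to 5.24. *Lepr* was the only one of the 8 detected genes that was highest in culture 2. Endothelial *Tek* and *Emcn* were off.

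The same order ran through contractile genes, a list added after the values had been seen. *Acta2* is in both the stromal and the contractile list. Of 13 genes 11 were detected, and all 11 had the order 1, 4, 3, 2, as did 10 of them on the LPS arrays. *Cnn1*, calponin, gave 13.99, 8.17, 10.84 and 11.61, a range of 56.6-fold. *Hspb1*, a small heat shock protein, gave 14.94, 9.30, 10.87 and 11.56. Outside the contractile list, *Timp1*, an inhibitor of matrix proteases, gave 14.81, 9.59, 11.26 and 12.02 in the same order. Of the 13,346 detected genes with a value on every array 8.49% had this order, and of the 722 of them that differed over 4-fold between cultures 350, or 48.5%.

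Most detected genes varied less between cultures than these. The median SD of the 13,391 detected genes was 0.25 log2 units, with quartiles of 0.16 and 0.39. For 252 detected probes that were printed in at least 5 spots, the median SD between cultures was 0.238 and that of the repeated spots within an array 0.145. The first is of values averaged over the spots of a probe and the second of single spots. A mean over spots varies less than a single spot, so the 2 SDs are not like measures. Between the highest and the lowest culture, 2,647 detected genes (19.8%) differed over 2-fold, 724 (5.41%) over 4-fold and 295 (2.20%) over 10-fold. Without culture 1 the number over 4-fold was 302. Of the 295 genes, 246 were highest in culture 1 and lowest in culture 2. Quantile normalisation forces the brightest probes of all arrays to nearly equal values, so that SDs at the very top of the range are understated.

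**Figure D4:**
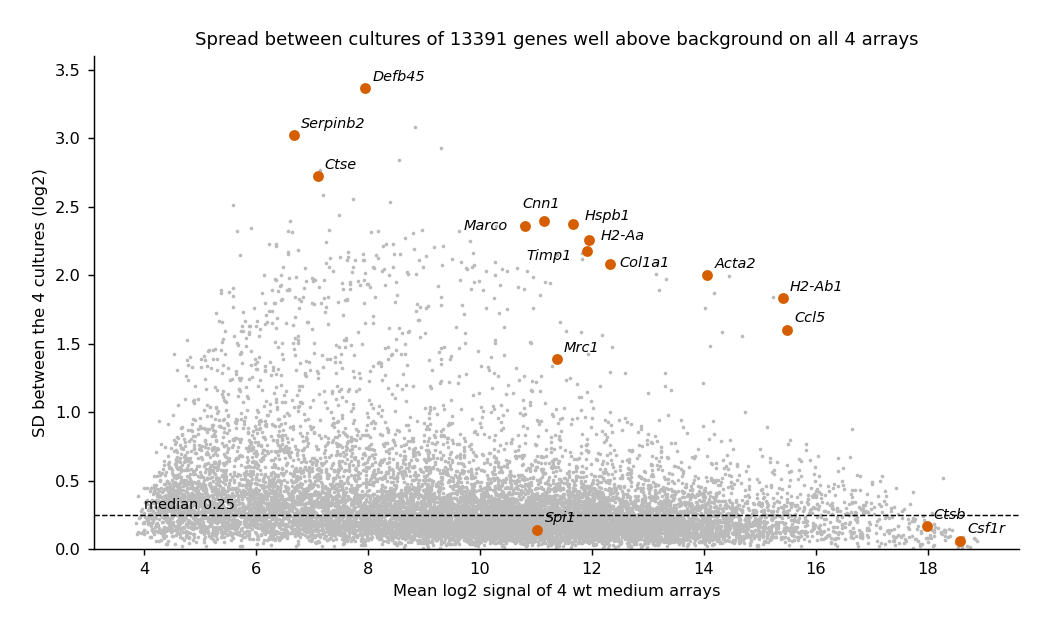
SD between the 4 cultures (vertical axis, log2 units) against mean log2 signal (horizontal axis) for the 13,391 detected genes, with the median SD of 0.25 as a dashed line. *Csf1r*, *Ctsb* and *Spi1* lie below the line, and *Col1a1*, *Acta2*, *Cnn1*, *H2-Aa*, *Marco* and *Defb45* lie far above it.

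The deviations of the medium arrays were compared with those of the LPS arrays. The deviation of each gene from the mean of the 4 medium arrays was set against its deviation from the mean of the 4 LPS arrays, across genes, which are not independent replicates. For arrays of the same culture r was between 0.462 and 0.795 (median 0.587), and for the 12 pairs of different cultures between -0.545 and 0.0309 (median -0.170). The 4 deviations of a gene cancel out within each treatment. Positive r for the same culture thus pushes r between different cultures to negative values by construction. The slide position of an array is given as a pair of numbers. Each culture had the same second number on both of its arrays, so culture and that position cannot be told apart. The first number was shared by all medium arrays and was another for all LPS arrays. Culture 1 was over 2-fold above the median of the other 3 for 809 detected genes, of which 72.7% did so again on its LPS array. Culture 2 was over 2-fold below it for 531 genes, of which 76.6% did so again. These were the highest shares, and in 3 of the other 6 sets most genes did not repeat: 35.2% of those low in culture 4, 41.5% of those high in culture 3 and 45.1% of those low in culture 1 did so.

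Interferon-stimulated genes, also listed after the values had been seen, split the cultures in another way. All 22 with a named probe were detected. *Ifit3* gave 11.25, 12.90, 12.86 and 10.65, *Isg15* gave 13.20, 14.19, 13.87 and 12.87, and *Oasl1* gave 11.04, 12.25, 11.89 and 10.49. None was highest in culture 1 or 4. Culture 2 was highest for 15 and culture 3 for 7, compared with 25.7% and 25.8% of all detected genes. The mean deviations of the list were -0.40, 0.52, 0.48 and -0.60. Scaling to the 75th percentile or no scaling put culture 3 above culture 2, and cultures 1 and 4 stayed below both. The higher cultures were those from 13-week-old mice, and the part of age was not tested. *Ifnb1* and *Ifna4* were off in all 4 cultures.

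The promoters of these genes often held the letters GAAA, NN and again GAAA of the interferon-stimulated response element, to which the complex ISGF3 and interferon regulatory factors bind. Of 18 genes with a promoter 10 held them (55.6%), compared with 3.99% of all 27,025 genes, 3.94% of the detected genes and 3.44% of the 32,851 promoters. Shown is *Isg15*, a ubiquitin-like protein whose promoter held 3 overlapping matches, at chr4:156200769-156201068 on the minus strand, written as above with the matches in capitals.
Isg15: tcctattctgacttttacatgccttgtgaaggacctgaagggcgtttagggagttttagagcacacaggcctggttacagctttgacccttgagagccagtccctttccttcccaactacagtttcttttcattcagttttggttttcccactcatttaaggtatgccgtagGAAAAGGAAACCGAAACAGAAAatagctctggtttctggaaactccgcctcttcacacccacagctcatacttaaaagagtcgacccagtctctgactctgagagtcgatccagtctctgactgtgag

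**Figure D5:**
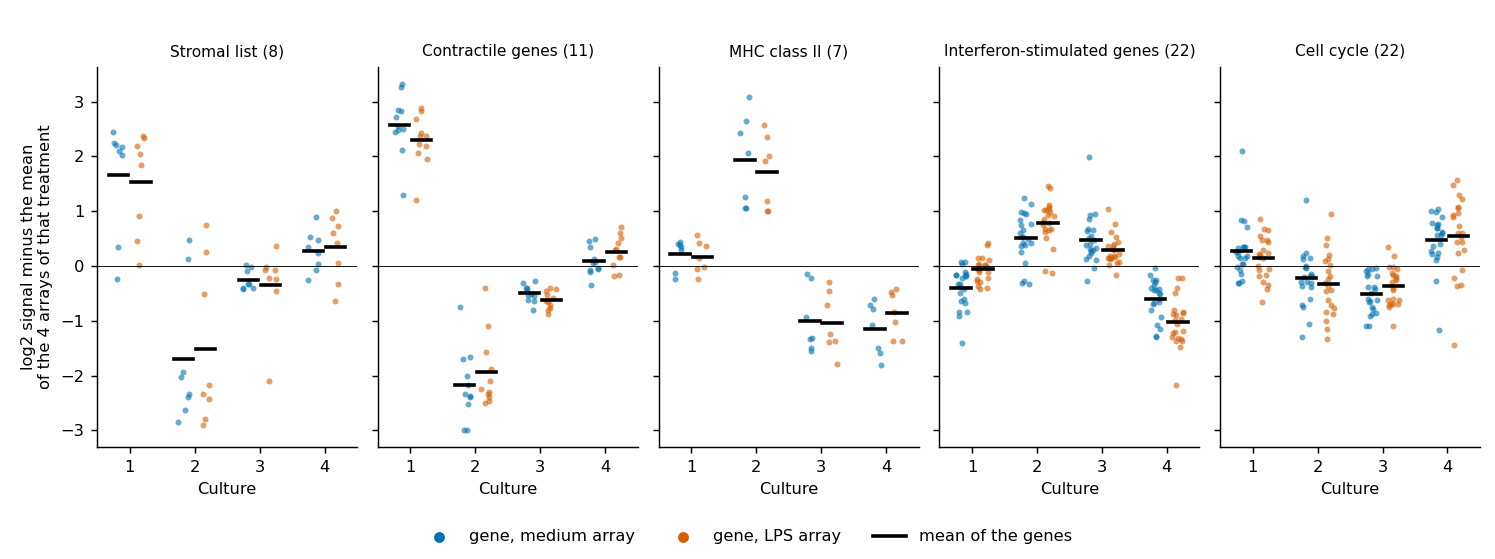
Mean deviation of 5 gene lists in each culture from the average of the 4 arrays of that treatment (log2 units), with genes as dots, medium in blue, LPS in orange and the list mean as a black bar. Stromal (8) and contractile (11) genes, which share *Acta2*, fall from culture 1 over 4 and 3 to 2. Class II genes (7) peak in culture 2, interferon-stimulated genes (22) are higher in cultures 2 and 3, and cell cycle genes (22) are highest in culture 4.

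The genes with the largest spread included a different kind. *Defb45*, a beta-defensin, gave 6.00, 6.89, 12.96 and 5.96, and on the LPS arrays 6.11, 6.27, 4.66 and 5.36. *BC003965* gave 7.30, 7.20, 13.46 and 7.38, *Btg4* gave 7.15, 9.28, 13.46 and 7.34 and *Hhipl1* gave 7.18, 7.64, 12.78 and 6.64, while the LPS array of culture 3 gave 5.28, 5.07 and 7.29 for these genes. The 4 genes were thus high on 1 array and not on the second array of that culture. *Serpinb2*, plasminogen activator inhibitor 2, gave 11.19, 5.49, 4.93 and 5.06 in medium and 10.75 to 12.06 on all LPS arrays. *Sulf1*, *Ankrd1*, *Lurap1l*, *Ccbe1*, *Kctd15*, *Cnn1*, *Aif1l* and *Hspb1*, also among the 15 with the highest SD, were highest in culture 1 and lowest in culture 2. *Sulf1* had a usable value on 3 of the arrays. *Ccbe1* gave 2.33 in culture 2, below the lowest signal marked as well above background on that array, 3.69. It counted as detected through another probe, so its SD rests on a value at background.

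The 25 genes with the brightest probes are given last, since they rest most on the probe. They held the ferritin chains, actins (*Actb*, *Actg1*), *Tmsb4x*, *Ppia*, *Tpt1*, ribosomal protein genes (*Rplp0*, *Rps14*, *Rpl10*, *Rpl35*, *Fau*), *Csf1r*, *Apoe* and *Milr1*. They also held *Glrx2*, *Ttc38*, *Slc10a1*, *Elk1*, *Kctd14*, *Exosc2*, *Med16*, *Zfp628*, *Synrg* and *Ndor1*. Of the 25, 16 had several probes, and in 11 these differed by more than 4 log2 units. *Slc10a1*, the bile acid transporter of hepatocytes, had probes at 18.64 and 1.79. *Elk1* had probes at 18.61 and 6.52, and *Glrx2* at 18.88, 12.02 and 6.80. Among all genes with several probes, 595 had one probe detected and another off.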

How the data were processed

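The arrays (Agilent mouse gene expression, 1 colour) were read by the authors with Feature Extraction, whose deposited processed intensity of each spot is background-subtracted, corrected for spatial gradients and not normalised between arrays. The deposited series table holds log2 values that the authors had quantile normalised across samples and set relative to each probe's median, and served as a comparison only. Here control spots and spots with poor-quality marks were left out, log2 intensities were averaged over the spots of a probe and all 23 arrays were quantile normalised together (limma 3.58.1, R 4.3.3; tables with pandas 2.3.3 on Python 3.11.15). Probes were named through RefSeq accessions (GRCm38.p6), which named 27,509 of 55,681 probes and 98.2% of the 27,985 with such an accession. A gene took its brightest probe. A probe was well above background when more than 0.5 of its spots were so marked. Genes were named by rule: key genes of each list, the 25 brightest, the 15 most variable detected genes and members that differed from most of their list. Further listed genes were named after their values had been seen. Members and lists were chosen with earlier results of these data known, and the interferon-stimulated and contractile lists were added after the values of these arrays had been seen. No comparison between groups was tested, since 1 group is described, and Dixon's ratio was computed over the 4 cultures to find values that stood apart. SDs are over 4 cultures, and having only these arrays bounds the precision. The scripts were checked on simulated data. Other detection rules, scalings, background corrections and probe choices and the omission of each culture were tried. Some genes that the rule names are not reported here.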

Additional observations from a re-analysis of the deposited data

Results flagged for a closer look

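In 280 values, named genes and measures of the whole arrays, 17 had 1 culture far from the other 3 relative to the range of all 4, where chance gives about 1 in 20, or 14. The genes include the 15 most variable of these same arrays except *Sulf1*, which had no value for culture 3. *Defb45*, *BC003965*, *Serpinb2* and *Hhipl1* are among them, so that the count is a description and not a test of them. *Ftl1*, *Ttc38* and *Kctd14* lie at the top of the range, where quantile normalisation makes values nearly equal. Values are the log2 difference of that culture from the mean of the other 3. Culture 1 was apart for *Marco* (-4.66), *Serpinb2* (6.03), *Il1rn* (1.19), *Zbtb46* (0.751), *Pf4* (0.421) and *Ttc38* (0.0422). Culture 2 was apart for *Tfrc*, the transferrin receptor (-1.48), *Tnf* (1.17), *Fabp5* (1), *Abcg1* (0.793) and *Kctd14* (0.0331). Culture 3 was apart for *Defb45* (6.68), *BC003965* (6.17), *Hhipl1* (5.62), *Acp5* (1.82), *Cxcl9* (1.46) and *Ftl1* (-0.0263). Culture 4 was apart for none of them.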

How the results depend on the processing

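No paired analysis was possible because 1 group is described and no result compares groups. With the looser mark for a signal above background, genes well above background on no array numbered 1858 in place of 5,069. The median SD between cultures was 0.276 without scaling between arrays, 0.197 after another background correction (normexp) and 0.218 to 0.252 when 1 culture was left out, the lowest without culture 1. The number of genes over 4-fold between cultures was 425 after normexp and 302 to 670 when 1 culture was left out, again lowest without culture 1. When 3 of 4 arrays sufficed for detection, 5 B cell genes, 1 gene of mast cells, basophils and eosinophils and 2 erythroid genes were detected in place of 3, 0 and 1, and leaving out 1 culture gave 3 to 5, 0 to 1 and 1 to 2. With the probe of highest LPS induction, 2 megakaryocyte genes were detected in place of 4. Of the 15 most variable genes 9 were kept after normexp. The cause of these shifts was not tested. Of the brightest 25 genes 12 were kept when the probes of a gene were averaged, and 23 after normexp. Leaving out culture 1 for the median SD of each list was chosen after seeing the data.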
